A study of Mus musculus with 26 samples.

Results

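Monocyte and macrophage genes were followed in the colon of mice through azoxymethane–dextran sodium sulfate (AOM–DSS) tumorigenesis, on a standard diet or on a diet with the LXR agonist GW3965. The 10 genes were chosen by name: the chemokine *Ccl2*, its receptor *Ccr2* and the monocyte surface gene *Ly6c2*, the general macrophage genes *Csf1r*, *Adgre1* and *Cd68*, the tissue-macrophage receptors *Mrc1*, *Cd163* and *Timd4*, and the arginase gene *Arg1*. They are 10 of the 35975 genes to which transcript counts were summed, and all 10 passed the filter on low counts, which left 17063 genes for testing. RNA came from 26 samples of wild-type male C57BL/6J mice from Taconic, about 10 weeks old at the start. AOM is a carcinogen that was injected once at 10 mg per kg body weight. DSS in the drinking water, which injures the colonic epithelium, began 7 days later and ran in up to 3 cycles of 7 days, with 2 weeks of water between cycles. Day 22 came after the first cycle only, and by this schedule day 43 came after the second and day 70 after the third. The days therefore differ in the DSS received as well as in time. At days 22, 43 and 70 after AOM, 3 mice per diet were sampled, and the groups called day 0 held 4 mice per diet without AOM or DSS, 2 of them with 22 diet days and 2 with 43. GW3965 is a synthetic activator of the liver X receptors, which switch on genes of cholesterol export in macrophages and other cells.

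Circulating monocytes that carry Ly6C follow CCL2 into inflamed tissue through the receptor CCR2, and in the gut wall they mature into macrophages, which depend on the CSF1 receptor. In the healthy colon, this supply replaces most macrophages throughout life, while a longer-lived population that carries TIM-4, the product of *Timd4*, is kept up with little input from the blood. Macrophages that have matured in the tissue carry scavenger receptors such as CD163 and the mannose receptor MRC1, and arginase 1 is made by macrophages under several stimuli as well as by cells of other lineages.

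*Ly6c2*, at chr15:75108158-75111970 of the GRCm38 build, has a near-identical neighbour, *Ly6c1*, at chr15:75044018-75048830, which endothelial cells express. They are shown because the level of one depends on telling them apart. The coding sequences of the main transcripts of both genes are 393 bases long and differ at 9 positions, an identity of 97.7%. The first 150 coding bases of each, from the GENCODE vM21 transcripts, hold 6 of these differences, which are set in capitals:
Ly6c2: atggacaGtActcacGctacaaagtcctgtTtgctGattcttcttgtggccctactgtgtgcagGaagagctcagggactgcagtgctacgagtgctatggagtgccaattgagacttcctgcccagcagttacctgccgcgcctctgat
Ly6c1: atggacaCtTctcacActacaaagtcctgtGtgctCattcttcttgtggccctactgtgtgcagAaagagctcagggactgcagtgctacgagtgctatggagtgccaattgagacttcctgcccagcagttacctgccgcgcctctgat
Of all stretches of 31 bases in the main *Ly6c2* transcript, 49.2% also occur in a transcript of *Ly6c1*. The estimated counts of the pair rest on the remaining stretches, and *Ly6c2* changes are given beside those of the 2 genes summed. The sum is mostly *Ly6c1*, which stood at 43.9–317 CPM in the 26 samples.

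Total counts per sample ranged from 18195345 to 41522204. Levels are given as CPM, in which counts are scaled to a common TMM library size, and levels of different genes are compared only as TPM, in which transcript counts are divided by length and scaled to a common total. Changes are log2 fold changes with their standard error from edgeR's quasi-likelihood test. The model had a level for each of the 8 groups and a term for the ribosomal percentage, the share of a sample's counts that fell on 88 genes of ribosomal proteins. P values were adjusted by Benjamini–Hochberg over the 17063 genes, and a gene was called at FDR < 0.05. The day 22 and day 43 mice of a diet came from 1 cage and its day 0 mice from 1 other cage, so cage cannot be told apart from diet on these days, nor from AOM–DSS in the comparisons of days 22 and 43 with day 0. Each day 70 mouse came from its own cage, and none of these cages held day 0 or day 22 mice. Cage therefore cannot be told apart from day in the comparisons of day 70 with days 0 and 22 either. The day 70 mice had 70 diet days, for which there were no untreated mice. In these bulk samples, fewer cells of a type and less RNA per cell cannot be told apart. The paper states that the RNA biopsies were taken from the distal colon, where the tumours lay. It reports no visible tumours at day 22, tumours almost only on the standard diet at day 43, and tumours on both diets, to a differing extent, at day 70. The part of tumour tissue in the results was not tested. The untreated mice carried colonic epithelium markers at a summed 5684–11220 CPM, as the tissue label says. One day 0 library titled as GW3965 is labelled STD for diet and was placed by its title. Another, standard diet day 43 replicate 1, had an RNA integrity number (RIN) of 2.6.

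On the GRCm38 build, *Ccl2* lies at chr11:82035571-82037453 and *Ccr2* at chr9:124101950-124113557. The general macrophage genes are *Csf1r* at chr18:61100598-61132149, *Adgre1* at chr17:57358691-57483527 and *Cd68* at chr11:69664213-69666153. *Mrc1* lies at chr2:14229392-14332057, *Cd163* at chr6:124304656-124330527, *Timd4* at chr11:46810800-46844332 and *Arg1* at chr10:24915221-24927484. All are protein coding. *Csf1r* overlaps *Hmgxb3* on the opposite strand, and the reads are not stated to keep strand.

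In untreated colon, *Cd68* and *Csf1r* stood at similar length-corrected levels, with 16.6 ± 2.68 and 15.6 ± 2.96 TPM on the standard diet (mean ± SD, n = 4). *Ly6c2* had a mean of 18.3 TPM with an SD of 18.03, which spans both. *Mrc1* and *Adgre1* followed at 6.60 ± 1.04 and 6.29 ± 2.73 TPM, and *Cd163* and *Ccr2* at 3.70 ± 1.25 and 3.64 ± 0.770 TPM. The lowest were *Ccl2* at 2.27 ± 1.04 TPM, *Timd4* at 0.900 ± 0.225 TPM and *Arg1* at 0.514 ± 0.186 TPM. The genes named together as a pair differed by less than the spread between mice, while *Timd4* and *Arg1* differed by more than either SD. With GW3965 the levels ran from 13.4 ± 3.30 TPM for *Cd68* to 0.605 ± 0.424 TPM for *Arg1*. The fewest counts per standard-diet sample stood behind *Arg1* (6–17), *Ccl2* (11–32) and *Timd4* (23–45).

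**Figure D1:**
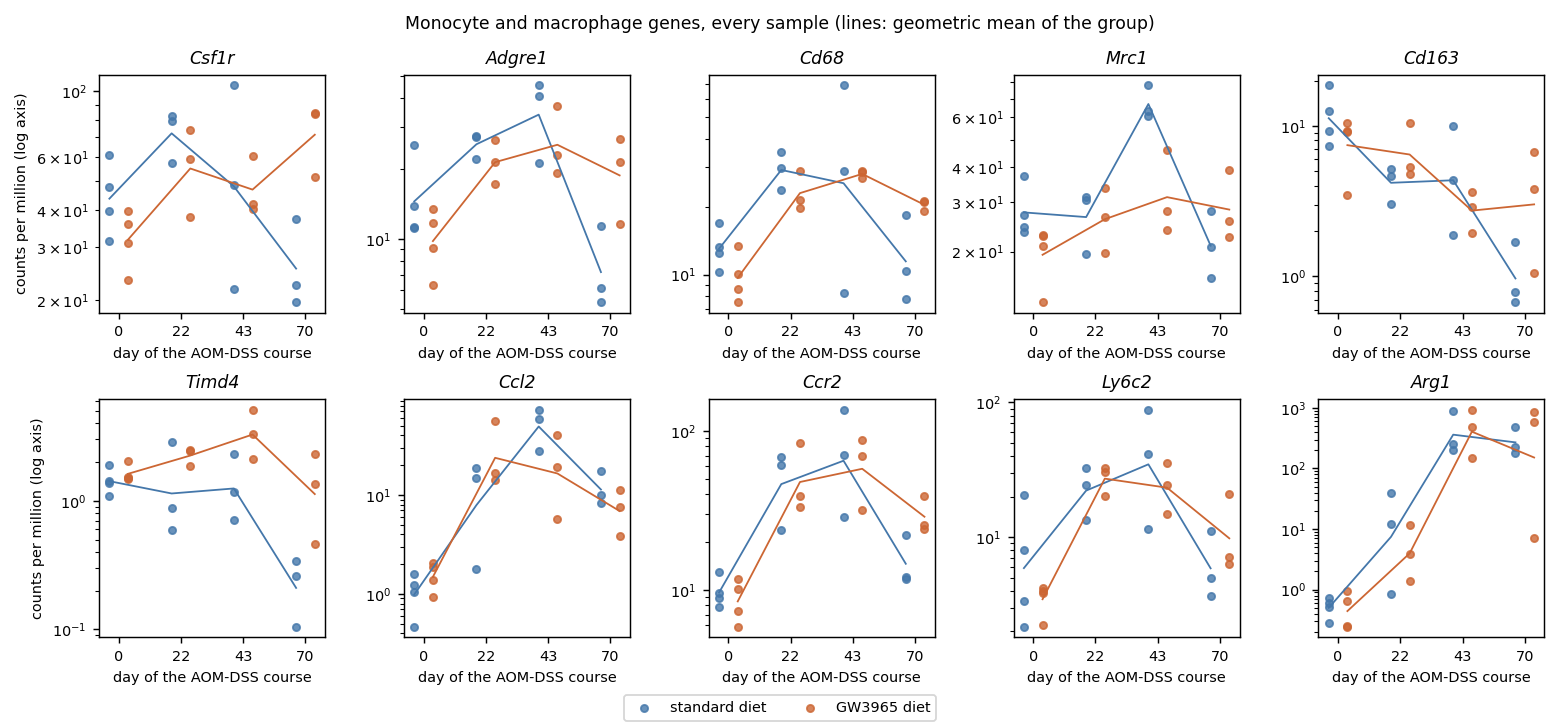
CPM (log axis) of the 10 genes in each of the 26 samples against the day of AOM–DSS, with points for mice (blue, standard diet; orange, GW3965 diet) and lines through the geometric means. *Ccl2* and *Ccr2* are higher in every day 22 sample than in every day 0 sample of the same diet, and *Timd4* is lowest in the 3 standard-diet samples of day 70, at 0.105–0.338 CPM.

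*Ccl2* and *Ccr2* rose by day 22 on both diets. *Ccl2* stood at 1.22, 1.04, 0.468 and 1.58 CPM in the untreated mice of the standard diet and at 1.77, 14.8 and 18.9 CPM at day 22. The groups did not overlap, although replicate 1 lay next to the untreated mice, and the fold was 7.52 (log2 fold change 2.91, SE 0.64, FDR 0.0090). On the GW3965 diet, *Ccl2* went from 1.87, 1.39, 0.927 and 2.04 CPM to 16.8, 14.2 and 56.4 CPM, with every day 22 sample several times above every untreated one (log2 fold change 3.39, SE 0.66, FDR 0.0022). *Ccr2*, the receptor by which monocytes follow CCL2, stood at 7.87, 12.98, 9.53 and 8.92 CPM before and 23.7, 61.1 and 68.7 CPM at day 22 of the standard diet, a 5.03-fold rise (log2 fold change 2.33, SE 0.50, FDR 0.0075). It stood at 5.90, 10.2, 11.7 and 7.41 CPM before and 84.3, 39.0 and 33.1 CPM after on the GW3965 diet (log2 fold change 2.52, SE 0.49, FDR 0.0024). The groups were separate on both diets, as were those of 26.9% of all genes on the standard diet and 48.2% on the GW3965 diet.

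*Ly6c2*, which marks monocytes recently arrived from the blood, varied widely among untreated standard-diet mice, at 2.17, 3.35, 20.5 and 8.07 CPM, and reached 13.5, 24.6 and 32.9 CPM at day 22. These groups overlapped, and the change was not called (log2 fold change 1.37, SE 0.68, FDR 0.26), whereas that of the sum with *Ly6c1* was called (1.08, FDR 0.042). On the GW3965 diet it rose from 3.83, 3.98, 4.19 and 2.24 CPM to 32.5, 20.2 and 30.7 CPM (log2 fold change 2.80, SE 0.72, FDR 0.015), and with *Ly6c1* summed the log2 fold change was 2.29 (FDR 2.2e-04). *Cd68*, a lysosomal protein of macrophages and monocytes, rose on the GW3965 diet from 7.57, 13.3, 10.0 and 8.65 CPM to 28.7, 21.3 and 19.8 CPM (log2 fold change 1.39, SE 0.43, FDR 0.040). Its values on the standard diet, 12.5, 16.95, 13.2 and 10.3 CPM before and 23.6, 29.9 and 35.0 CPM at day 22, did not overlap either, with a log2 fold change of 1.28 (SE 0.42, FDR 0.070).

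The standard diet thus had 3 of the 10 genes called at day 22, all higher (*Ccl2*, *Ccr2* and *Arg1*), where 7.73% of all genes were called and 6.19% were higher. The GW3965 diet had 4, all higher (*Ccl2*, *Ccr2*, *Ly6c2* and *Cd68*), where 12.6% of all genes were called and 9.13% were higher. The difference between the diets in these rises was not called: none of the 10 genes was called in the diet effect at day 22 minus that at day 0 (edgeR; 0 of the 10 and 1065 of all genes at an unadjusted p under 0.05; 0.0234% of all genes called). *Csf1r*, *Adgre1*, *Mrc1*, *Cd163* and *Timd4* were not called on either diet at day 22, with log2 fold changes between -1.28 (*Cd163*, standard diet, FDR 0.21) and 0.98 (*Adgre1*, GW3965 diet, FDR 0.095). The 3 calls of the standard diet were lost without replicate 3 of day 22 (FDR 0.058 for *Ccr2*, 0.10 for *Ccl2* and 0.12 for *Arg1*), and that of *Arg1* also without replicate 1 of the untreated mice of 22 diet days (FDR 0.051). Against the 2 untreated mice of 22 diet days alone, no gene of the 10 was called on either diet, with log2 fold changes of 2.76 and 3.16 for *Ccl2* (FDR 0.090 and 0.060) and 2.22 and 2.64 for *Ccr2* (FDR 0.10 and 0.060). On the GW3965 diet, the *Ly6c2* call was lost without replicate 1 of day 22 (FDR 0.090) or without the untreated library of conflicting labels (FDR 0.055), and the *Cd68* call held in only 1 of 7 fits that left out 1 sample, without replicate 2 of the untreated mice of 22 diet days (FDR up to 0.19 in the others).

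**Figure D2:**
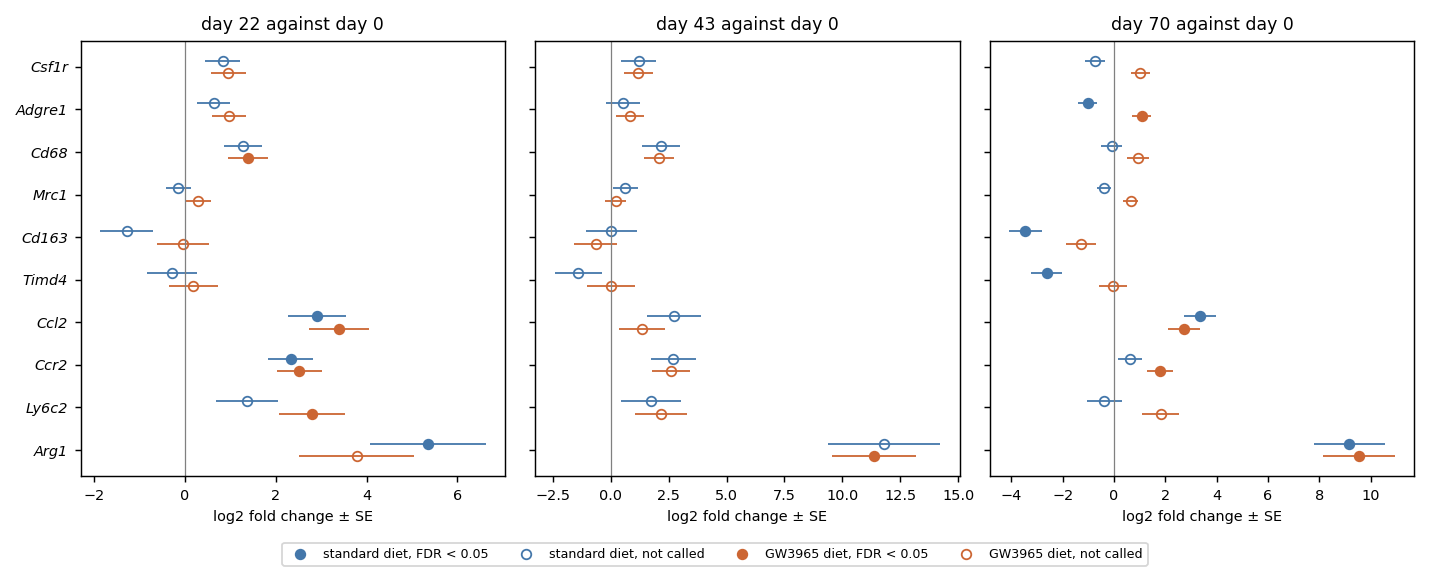
Log2 fold change against day 0 of the same diet (x axis, bars ± SE) for the 10 genes at days 22, 43 and 70, in blue for the standard and orange for the GW3965 diet, with filled points at FDR < 0.05. *Ccl2* is filled on both diets at days 22 and 70, and *Adgre1* is filled on opposite sides of 0 at day 70, at -1.03 and 1.08.

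Other genes from lists for monocytes and macrophages also rose at day 22, and which cells made them was not tested. Of 13 monocyte and inflammatory macrophage genes, 11 were higher on the standard diet and 9 on the GW3965 diet, with median log2 fold changes of 2.31 and 2.12 against -0.0011 and 0.020 for all genes. They included *Il1b*, the gene of interleukin-1β, at 138 CPM against 2.30 CPM on the standard diet (log2 fold change 5.61, SE 0.98, FDR 0.0021), *Nos2*, the inducible nitric oxide synthase (4.49, SE 0.78, FDR 0.0021), and *Tnf* (3.69, SE 0.55, FDR 9.3e-04). Of 9 further chemokines and receptors of monocyte traffic, 5 were higher on the standard diet and 7 on the GW3965 diet. Scavenger and phagocyte receptors numbered 4 of 8 higher and 5 of 8 higher, and the smallest p on both diets was that of *Clec7a*, the β-glucan receptor (log2 fold change 2.83 and 3.50, SE 0.43 and 0.45).

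Among 14 genes of tissue-resident macrophages, 3 were higher on the standard and 5 on the GW3965 diet at day 22, and none was lower. Among them were complement genes that macrophages make, *C1qb* (log2 fold change 1.49 on the standard and 1.83 on the GW3965 diet), *C1qa* (1.38 and 1.78) and, on the GW3965 diet, *C1qc* (1.55). Their list median was 0.40 and 0.099. Markers of other leukocytes moved as well: 5 of 6 neutrophil and 5 of 5 T cell markers were higher at day 22 on each diet, and the summed T cell markers went from 5.79–23.5 CPM to 58.4–146 CPM on the standard diet and from 6.76–12.4 CPM to 82.3–98.9 CPM on the GW3965 diet. Their part in the results was not tested.

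**Figure D3:**
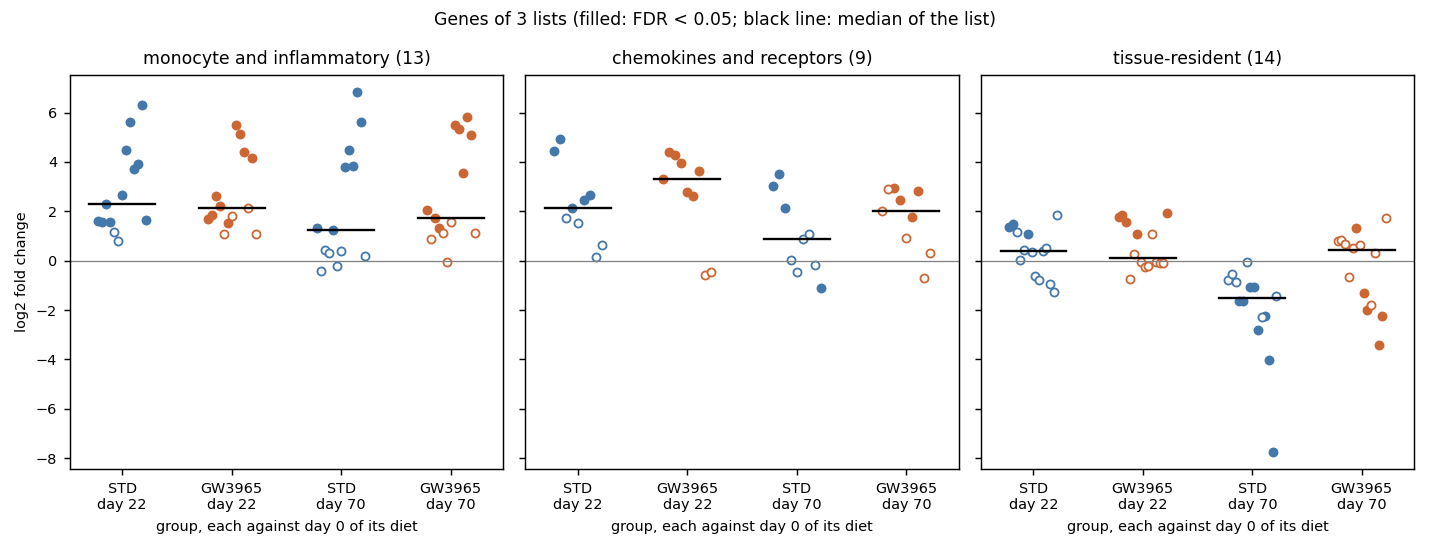
Log2 fold change against day 0 (y axis) of each gene of 3 lists, by diet and day on the x axis, with filled points at FDR < 0.05 and a black line at the list median. The tissue-resident list has 8 filled points below 0 on the standard diet at day 70, and its lowest point is *Cd209g*, at 0 CPM in all 3 of those samples, so that the place of this point depends on the fit.

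At day 43 levels of several genes were high, but few tests passed. *Ccl2* stood at 28.1, 72.0 and 58.8 CPM on the standard diet and 19.3, 40.3 and 5.78 CPM on the GW3965 diet, all above every untreated mouse. *Ccr2* stood at 28.6, 135 and 70.9 CPM and at 69.4, 87.1 and 32.0 CPM, again all above the untreated mice. *Mrc1*, the mannose receptor, stood at 63.5, 78.0 and 60.7 CPM on the standard diet against 23.6–37.1 CPM in untreated mice, without overlap, and at 27.9, 45.8 and 23.9 CPM on the GW3965 diet. Between day 43 and day 0, 48.4% of all genes did not overlap on the standard diet and 57.4% on the GW3965 diet. The ribosomal percentage ran from 14.4% to 18.6% in these standard-diet samples and from 10.0% to 17.6% in those of the GW3965 diet, against 3.96% to 10.7% in all others, so the term for it and the day can hardly be told apart on the standard diet. Markers of other cells were high on this day too. Neutrophil markers summed to 2387–12750 CPM on the standard and 843–3178 CPM on the GW3965 diet, against 96.3–245 CPM in untreated mice of both diets, and T cell markers to 53.3–160.5 and 60.4–194 CPM against 5.79–23.5 CPM. Fibroblast markers summed to 3676–4463 CPM on the standard diet against 936–1761 CPM in its untreated mice. The part of these cells in the results was not tested.

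With that term, none of the 10 genes was called at day 43 on the standard diet and 0% of all genes were, with 4 of the 10 and 1369 of all genes at an unadjusted p under 0.05. On the GW3965 diet only *Arg1* was called of the 10, where 0.938% of all genes were called and 0.897% were higher. Without the term, 7 and 8 of the 10 were called, along with 9394 and 7729 of all genes, and the log2 fold change of *Ccl2* was 5.62 (FDR 5.8e-06) in place of 2.73 (FDR 0.54) on the standard diet. Leaving out the sample with RIN 2.6, which had the lowest *Csf1r* (21.8 CPM, others 104 and 48.6) and *Cd68* (8.30 CPM, others 69.2 and 28.7) of its group, still gave 0 of the 10 on the standard diet. *Cd68* was then called on the GW3965 diet (log2 fold change 1.95, FDR 0.034).

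At day 70, the last day sampled, *Timd4*, *Cd163* and *Adgre1* were low on the standard diet, while *Ccl2* and *Arg1* were high. *Timd4* stood at 1.08, 1.37, 1.91 and 1.44 CPM in untreated standard-diet mice and at 0.105, 0.261 and 0.338 CPM at day 70, from 2–8 counts per sample (log2 fold change -2.62, SE 0.60, FDR 0.0027). *Cd163*, the haemoglobin scavenger receptor, went from 12.6, 18.6, 7.36 and 9.26 CPM to 0.789, 1.70 and 0.676 CPM (log2 fold change -3.45, SE 0.63, FDR 5.7e-04). Neither gene's groups overlapped, nor did those of 43.1% of all genes. *Adgre1*, which encodes F4/80, went from 11.3, 25.2, 13.8 and 11.1 CPM to 5.36, 11.3 and 6.13 CPM; here 1 day 70 sample lay within the untreated range (log2 fold change -1.03, SE 0.37, FDR 0.039). In the same samples *Ccl2* stayed high, at 8.31, 17.5 and 10.1 CPM against 0.468–1.58 CPM (log2 fold change 3.36, SE 0.62, FDR 6.3e-04). *Ccr2* was back near its start, at 12.1, 22.1 and 11.7 CPM (log2 fold change 0.63, SE 0.47, FDR 0.32). *Ly6c2* stood at 3.68, 11.1 and 4.95 CPM (-0.38, SE 0.68, FDR 0.70), and the sum with *Ly6c1* had the opposite sign (0.75, FDR 0.064).

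In all, 5 of the 10 genes were called at day 70 on the standard diet, where 33.2% of all genes were called. The 2 higher genes (*Ccl2* and *Arg1*) stood beside 18.1% of all genes and the 3 lower ones (*Adgre1*, *Cd163* and *Timd4*) beside 15.1%. All but the *Adgre1* call were kept when any 1 sample of the 2 groups was left out. *Adgre1* lost its call without replicate 1 or 3 of day 70 (FDR 0.15 and 0.14), without replicate 2 of the untreated mice of 22 diet days (FDR 0.17) and with no filter on low counts (FDR 0.05005). Of the 14 tissue-resident genes, 8 were lower and none was higher, with a median of -1.53 against 0.035 for all genes. *Folr2*, a folate receptor of resident macrophages, stood at 1.41 CPM against 9.80 CPM (log2 fold change -2.79, SE 0.47, FDR 3.0e-04), *Mertk*, a receptor for engulfing dying cells, at 6.27 against 19.8 CPM (-1.63, SE 0.32, FDR 0.0011), and the lectin gene *Cd209g* was at 0 CPM in all 3 samples against a mean of 1.17 CPM. Of the 13 monocyte and inflammatory genes, 7 were higher and none was lower, among them *Spp1*, the osteopontin gene (6.81, SE 1.03, FDR 1.4e-04), and *Trem1* (5.601, SE 1.07, FDR 8.0e-04), both also made by cells other than macrophages. In the same comparison 5 of 5 B cell, 4 of 7 dendritic cell and 5 of 5 smooth muscle markers were lower and 5 of 6 neutrophil markers higher, and their part in the macrophage genes' values was not tested.

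Compared with day 22 of the same diet, 7 of the 10 genes were called at day 70 on the standard diet, where 31.8% of all genes were called. The 6 lower ones were *Timd4* (log2 fold change -2.33, SE 0.63, FDR 0.0098), *Cd163* (-2.17, SE 0.64, FDR 0.015), *Ccr2* (-1.70, SE 0.53, FDR 0.020), *Adgre1* (-1.67, SE 0.40, FDR 0.0051), *Csf1r* (-1.58, SE 0.41, FDR 0.0078) and *Cd68* (-1.38, SE 0.46, FDR 0.027), beside 16.3% of all genes lower. *Arg1* was higher, beside 15.5% of all genes. *Csf1r*, the receptor on which macrophages depend, stood at 57.6, 79.0 and 82.4 CPM at day 22 and 22.6, 37.2 and 19.7 CPM at day 70. *Adgre1* stood at 21.9, 27.5 and 27.3 CPM and then at 5.36, 11.3 and 6.13 CPM. Neither gene's days overlapped, nor did those of 51% of all genes. These 2 calls held whichever sample was left out, whereas only 2 of the 7 were left without replicate 2 of day 22, 3 without replicate 3 of day 70 and 4 without replicate 1 of day 70. Among the tissue-resident genes, 12 of 14 were lower at day 70 than at day 22. Markers of lymphocytes moved the same way, with 5 of 5 B cell and 5 of 5 T cell markers lower, as did 7 of 7 dendritic cell markers, and the part of these cells in the result was not tested.

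On the GW3965 diet, 4 of the 10 genes were called at day 70 against day 0, all higher (*Ccl2*, *Ccr2*, *Adgre1* and *Arg1*), where 21.8% of all genes were called and 14.4% were higher. *Ccl2* stood at 3.89, 11.2 and 7.49 CPM (log2 fold change 2.72, SE 0.62, FDR 0.0044) and *Ccr2* at 25.7, 38.8 and 24.2 CPM (1.79, SE 0.49, FDR 0.013), each above every untreated mouse of its diet. *Adgre1* stood at 26.7, 21.3 and 11.52 CPM against 6.34, 11.7, 13.5 and 9.10 CPM (1.08, SE 0.38, FDR 0.045), where replicate 3 lay within the untreated range. Its call held in only 2 of 7 fits that left out 1 sample (FDR 0.020 to 0.18) and was lost without replicate 1 or 2 of day 70 or without any untreated mouse except replicate 1 of 43 diet days, as well as under RLE scaling (FDR 0.054) and with no filter (FDR 0.078). *Csf1r* stood at 84.2, 83.6 and 51.6 CPM against 23.3–39.6 CPM, without overlap, but was not called (1.03, SE 0.38, FDR 0.059). Between these groups 31.3% of all genes did not overlap. *Ly6c2* was not called (1.81, SE 0.71, FDR 0.071), though the sum with *Ly6c1* was called (1.23, FDR 0.0096). *Timd4*, at 0.461, 2.32 and 1.34 CPM against 1.47–2.03 CPM, had a log2 fold change of -0.04 (SE 0.53, FDR 0.97), and *Cd163*, at 6.71, 3.83 and 1.06 CPM against 3.49–10.4 CPM, one of -1.29 (SE 0.59, FDR 0.12). In the same comparison 5 of 6 neutrophil, 4 of 5 T cell and 3 of 7 dendritic cell markers were higher, and their part in these values was not tested.

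From day 22 to day 70 of the GW3965 diet, only *Arg1* of the 10 was called, where 4.41% of all genes were called and 2.81% were higher. This call was lost without any one of the day 22 samples or without replicate 3 of day 70. *Csf1r* and *Adgre1*, which had fallen on the standard diet, had log2 fold changes of 0.07 (SE 0.46) and 0.10 (SE 0.44). At day 70 against day 0 of this diet, 21.8% of all genes were called, and 1268 of the 17063 were called lower. Of the 14 tissue-resident genes, 4 were lower and 1 was higher, with a list median of 0.41 against 0.10 for all genes. The lower ones included *Cd209f* (-3.44, SE 0.78, FDR 0.0042) and *Folr2* (-1.98, SE 0.46, FDR 0.0047). In that comparison 8 of the 13 monocyte and inflammatory genes were higher.

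Whether the diets differed was tested on each day. At day 0 none of the 10 genes was called (0.0293% of all genes were), and none was at day 22 (0.135%) or at day 43 (0.0293%). An unadjusted p under 0.05 was found for 0 of the 10 and 331 of all genes at day 0. At day 22 it was found for 0 of the 10 and 1700 of all genes, and at day 43 for 2 of the 10 and 1476 of all genes. At day 43 these 2 were *Mrc1*, lower on the GW3965 diet without overlap (log2 fold change -0.93, SE 0.31, FDR 0.49), and *Timd4* (1.55, SE 0.58, FDR 0.51), which was called without replicate 2 of the standard diet (2.72, FDR 0.045). Between the diets at day 43, 10.9% of all genes did not overlap. Genes that LXR switches on were higher with the agonist: of 9 LXR target genes of macrophages, 2 were higher on the GW3965 diet on each of days 0, 22 and 43 and 4 at day 70, where *Abca1*, a cholesterol exporter, stood at 223 against 34.2 CPM (log2 fold change 2.67, SE 0.28, FDR 1.4e-04).

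*Timd4* was the only one of the 10 genes called between the diets at day 70. It stood at 0.461, 2.32 and 1.34 CPM on the GW3965 diet, all above the 0.105, 0.261 and 0.338 CPM of the standard diet, a 6.64-fold difference (log2 fold change 2.73, SE 0.63, FDR 0.036). At that day 1.83% of all genes were called and 1.75% were higher. The call was lost without any one of the 3 standard-diet samples (FDR 0.080 to 0.22), without replicate 2 of the GW3965 diet (log2 fold change 2.09, FDR 0.062) and with no filter on low counts (FDR 0.055). The log2 fold change ran from 2.49 to 2.75 over 8 alternatives and from 2.09 to 3.11 without 1 sample. With the samples of these 2 groups alone, *Timd4* did not pass the filter on low counts.

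Next came *Adgre1*, with 26.7, 21.3 and 11.52 CPM against 5.36, 11.3 and 6.13 CPM (log2 fold change 1.495, SE 0.41, FDR 0.061), *Csf1r*, with 84.2, 83.6 and 51.6 CPM against 22.6, 37.2 and 19.7 CPM (1.32, SE 0.41, FDR 0.094), and *Cd163* (1.63, SE 0.64, FDR 0.18). The lowest GW3965 value of *Adgre1*, 11.52 CPM, lay just above the highest of the standard diet, while those of *Csf1r* were well apart. Together with *Timd4*, *Ccr2* and *Cd68*, 5 of the 10 genes were higher in every GW3965 than in every standard-diet sample, where 10.5% of all genes were. Replicate 3 of the GW3965 diet had the lowest *Csf1r*, *Adgre1* and *Cd163* of its group. Without it, 4 of the 10 were called (*Timd4*, *Adgre1*, *Csf1r* and *Cd163*), and 1464 of all genes were, against 312 with every sample. None of the 10 was called without replicate 2 of the GW3965 diet, where 759 of all genes were. None was called either without replicate 1, 2 or 3 of the standard diet, where 6, 53 and 7 of all genes were. By DESeq2 3 of the 10 were called, along with 1170 of all genes. *Ccl2* (-0.22, SE 0.63, FDR 0.88) and *Arg1* (0.42, SE 1.10, FDR 0.87) were not called, and with *Ly6c1* summed the *Ly6c2* value of 0.94 became 0.29 (FDR 0.66).

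**Figure D4:**
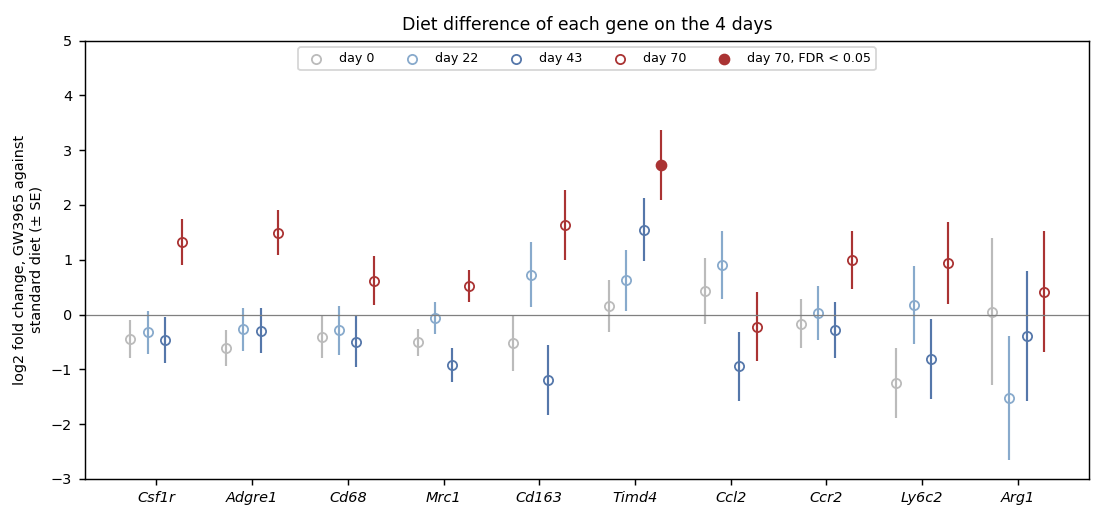
Log2 fold change of the GW3965 against the standard diet (y axis, bars ± SE) for each of the 10 genes on days 0, 22, 43 and 70, with a filled point at FDR < 0.05. The day 70 points of *Csf1r*, *Adgre1*, *Cd163* and *Timd4* lie between 1.32 and 2.73, and only that of *Timd4* is filled.

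The change of the diet difference over time was not called for any gene of the 10. The diet effect at day 70 minus that at day 0 was 2.11 for *Adgre1* (SE 0.53, FDR 0.16), 2.58 for *Timd4* (SE 0.79, FDR 0.21) and 1.77 for *Csf1r* (SE 0.54, FDR 0.21). In it 6 of the 10 genes had an unadjusted p under 0.05, as did 2169 of all 17063 genes, and 0% of all genes were called. For day 43 minus day 0, 0 of the 10 genes and 746 of all genes had an unadjusted p under 0.05, and 0% of all genes were called. Against day 22, a comparison added after the data had been seen, the values were 1.77 for *Adgre1* (SE 0.57, FDR 0.12), 2.11 for *Timd4* (SE 0.83, FDR 0.18) and 1.64 for *Csf1r* (SE 0.58, FDR 0.14). There 3 of the 10 genes had an unadjusted p under 0.05, as did 3454 of all 17063 genes, and 0.0234% of all genes were called. *Adgre1* passed in both by DESeq2 and without replicate 3 of the GW3965 day 70 samples (FDR 0.027 and 0.036). In these 2 comparisons DESeq2 called 306 and 938 of all genes, and the fit without that replicate called 418 and 929. The joint test of diet over the 4 days called none of the 10 (5 of them and 2307 of all genes at an unadjusted p under 0.05), where 0.176% of all genes were called.

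Markers of other cells differed between the diets at day 70 too. Of 14 tissue-resident genes, 3 were higher on the GW3965 diet: *Maf*, a transcription factor of macrophages and T cells, at 36.6 against 10.4 CPM (log2 fold change 1.91, SE 0.37, FDR 0.018), *Cd4*, which T cells also carry, at 21.5 against 2.78 CPM (2.82, SE 0.70, FDR 0.045), and *Cd209g*, at 0.19 CPM against 0. Since *Cd209g* was at 0 CPM in every standard-diet sample of that day, its fold change depends on the fit. The list median was 1.13 against 0.017 for all genes. None of the 13 monocyte and inflammatory genes and none of the 9 chemokines and receptors was called. Of 5 B cell markers 5 were higher, and their summed level was 46.0, 321 and 17.3 CPM on the GW3965 diet against 4.68, 9.71 and 5.16 CPM on the standard diet. Replicate 2, which had the most *Timd4* of the 6 samples, also had the most B cell RNA. It had the lowest sum of the stratified epithelium markers described below, at 7.96 CPM. Of 5 T cell markers none was called, at 16.1–55.8 against 6.41–13.7 CPM, and of 7 dendritic cell markers 3 were higher, at 28.3–65.1 against 10.8–16.3 CPM. Smooth muscle markers, none of them called, summed to 2085–5731 CPM on the GW3965 against 1191–2544 CPM on the standard diet. Colonic epithelium markers summed to 2173–7485 against 5761–13550 CPM, with the lowest sum in replicate 1 of the GW3965 diet. The part of all these cells in the macrophage genes' values was not tested.

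*Arg1*, which encodes the enzyme that splits arginine into ornithine and urea, had the highest log2 fold changes of the 10 genes against day 0 on every day and diet. It stood at 0.283, 0.519, 0.723 and 0.594 CPM in untreated mice of the standard diet and at 0.246, 0.952, 0.662 and 0.249 CPM on the GW3965 diet. At day 22 it was at 0.860, 12.3 and 38.7 CPM (log2 fold change 5.35, SE 1.27, FDR 0.014) and at 11.8, 1.37 and 3.90 CPM (3.78, SE 1.27, FDR 0.056). It then reached 257, 898 and 205 CPM at day 43 and 225, 180 and 484 CPM at day 70 of the standard diet, and 920, 151 and 478 CPM and 577, 7.11 and 853 CPM on the GW3965 diet. The log2 fold change at day 70 was 9.18 on the standard diet (SE 1.39, FDR 1.5e-04) and 9.54 on the GW3965 diet (SE 1.41, FDR 1.6e-04), and both calls were kept whichever sample was left out. In length-corrected terms *Arg1* was then the highest of the 10 genes, at 299 ± 166 and 496 ± 444 TPM (mean ± SD, n = 3), after being the lowest in untreated mice. The next were *Ccl2* at 25.9 ± 10.1 TPM on the standard diet and *Cd68* at 28.4 ± 2.77 TPM on the GW3965 diet.

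Markers of stratified (squamous) epithelium, which the colon lacks and the anal canal has, were high in most samples of days 43 and 70, as *Arg1* was. Their 10 genes summed to 8.34–11.1 CPM in untreated mice, 9.42–28.9 CPM at day 22, 185–4203 CPM at day 43 and 3509–5590 CPM at day 70 of the standard diet. At day 70 of the GW3965 diet the sums were 31481, 7.96 and 13964 CPM, and replicate 2, which had the low sum and a keratin 5 (*Krt5*) level of 0.22 CPM, was also the sample with 7.11 CPM of *Arg1*. All 10 markers were higher at day 70 on both diets. On the standard diet the highest sum of day 43, 1748 CPM in replicate 2, came with the highest *Arg1* of that group, 898 CPM. The highest sum of day 70, 5590 CPM in replicate 2, came with the lowest *Arg1* of its group, 180 CPM. At day 22, replicates 2 and 3 of the standard diet, with 12.3 and 38.7 CPM of *Arg1*, also had the highest marker sums of that day, 23.1 and 28.9 CPM, while replicate 1 of the GW3965 diet had 11.8 CPM of *Arg1* at a sum of 10.6 CPM, within the untreated range. The cell source of *Arg1* was not tested. Skeletal muscle markers reached 16364 CPM in replicate 1 of the GW3965 day 70 samples, against 8.99–667 CPM in the other 5 samples of that day. Without that replicate, the log2 fold change of *Timd4* between the diets was 3.11 (FDR 0.027).

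**Figure D5:**
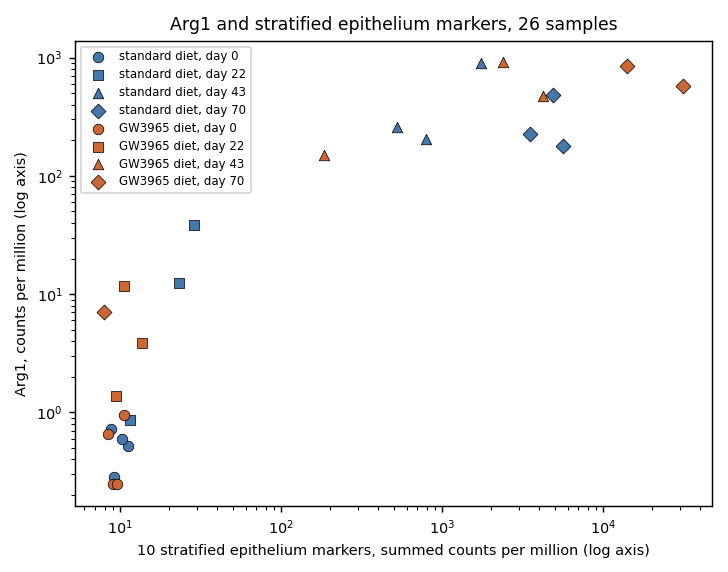
CPM of *Arg1* (y axis, log axis) against the summed CPM of 10 stratified epithelium markers (x axis, log axis) in the 26 samples, by diet (colour) and day (shape). Every sample above 100 CPM of *Arg1* has a marker sum of 185 CPM or more, and the day 70 sample of the GW3965 diet with 7.11 CPM of *Arg1* lies with the untreated and day 22 samples on the x axis.

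Over the 26 samples, the log2 CPM of *Ccr2* had a Pearson r of 0.89 with *Ly6c2*, 0.88 with *Cd68*, 0.83 with *Adgre1* and 0.82 with *Ccl2*, but -0.10 with *Cd163* and 0.38 with *Timd4*. *Cd163* had an r of -0.65 with *Arg1* and 0.45 with *Timd4*. These are descriptions over samples that share groups, cages and scaling. Of all genes tested, those most like *Ccr2* were *Fcgr1* (r = 0.98), the gene of the high-affinity Fcγ receptor, *Slc11a1* (0.98), *Fcgr4* (0.98), *Pirb* (0.98) and *Arrb2* (0.97). Those most like *Ccl2* were the chemokine genes *Ccl7* (0.95), *Cxcl1* (0.95) and *Cxcl2* (0.94), with *Saa3* (0.94) and *Gpr84* (0.94). *Csf1r* was most like *Vsir* (0.90), *Entpd1* (0.89), *Inpp5d* (0.89), *Slfn8* (0.89) and *Nckap1l* (0.88), so that each of the 3 had a different set of 5 genes nearest to it.

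The remaining lists are given by their counts. On the standard diet 7.73% of all genes were called at day 22 against day 0, 33.2% at day 70 against day 0 and 31.8% at day 70 against day 22, and on the GW3965 diet 12.6% and 21.8% at days 22 and 70 against day 0. Of the alternative activation genes 4 of 8 were higher at day 22 of the standard diet and 2 higher and 2 lower at day 70, where *Il4ra*, the interleukin-4 receptor, was higher (1.90, SE 0.32, FDR 2.8e-04) and the lectin gene *Mgl2* lower (-2.73, SE 0.53, FDR 8.8e-04). With GW3965, 5 of 8 were higher at each of these days. In the CSF1 receptor axis with the myeloid transcription factors, 4 of 11 were higher at day 22 on each diet, with *Spi1*, which encodes the master myeloid factor PU.1, at 2.08 (SE 0.48, FDR 0.012) and 2.10 (SE 0.49, FDR 0.0078). From day 22 to day 70 of the standard diet *Spi1* was lower (-1.86, SE 0.52, FDR 0.012), as were both ligands of the CSF1 receptor, *Csf1* (-1.16, SE 0.27, FDR 0.0038) and *Il34* (-1.08, SE 0.26, FDR 0.0046). In the same comparison 4 of 8 scavenger and phagocyte receptors were lower, where 16.3% of all genes were. Of the 9 LXR targets 4 were lower and 1 higher, beside 16.3% and 15.5% of all genes, with *Nr1h3*, the gene of LXRα itself, at -1.98 (SE 0.28, FDR 4.6e-04).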

How the data were processed

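RNA of 26 colon samples was sequenced by the authors as paired-end reads and quantified with kallisto on GRCm38 cDNA (version and Ensembl release not given in the sources used here). The deposited files hold estimated counts (expected counts) and TPM per transcript. Of 119414 transcripts, 116728 (97.8%) were matched to GENCODE vM21 genes, and 0.615–0.999% of the counts per sample were unmatched. Counts were summed per gene and rounded. The members and gene lists were chosen with earlier results of these data known.

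Analyses used R 4.3.3 with edgeR 4.0.16 (TMM, filterByExpr, quasi-likelihood F-test), limma 3.58.1 and DESeq2 1.42.0. Tables were built in Python 3.11.15. The ribosomal percentage stands in for a correction that the authors' methods name but do not define. Samples were grouped by title. The paper's reporting summary says that biological replicates were pooled into single samples for bulk RNA sequencing, whereas its figure legend counts mice per timepoint. Each library is described here as 1 mouse. P values measure only the spread between these samples, which shared cages within a group except at day 70. Named were the 10 members, up to 3 genes per list and comparison of smallest P at FDR < 0.05, the 5 genes most correlated with *Csf1r*, *Ccr2* and *Ccl2* (prior count 2), *Ly6c1*, and marker genes. Some genes that this rule names are not reported here. Alternatives changed the covariate, normalization, filter, test, samples and replicate block. Fits that leave out 1 sample kept the 8-group model.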

Additional observations from a re-analysis of the deposited data

Results flagged for a closer look

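In the untreated groups of 4 mice, 1 of 20 combinations of gene and group had a sample far from the others. *Timd4* in replicate 2 of the GW3965 diet after 22 diet days stood at 2.03 CPM, against 1.47–1.54 CPM in the other 3 mice, and the gap took 0.874 of the range, above Dixon's 95% critical value for 4 samples. Chance gives about 1 such case in 20. None of the 10 genes passed a test of a difference in diet effect between days.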

How the results depend on the processing

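Each result was recomputed under 9 to 11 alternatives and without each sample. No called value changed sign. The counts that follow are of the 10 genes called. At day 22 against day 0, the standard diet's 3 became 0 against untreated mice of matched diet days and 5 with only the groups compared and no covariate, and 0 to 3 without 1 sample. The GW3965 diet's 4 became 7 with RIN as covariate, 2 without the library of conflicting labels, 0 with matched untreated mice, 7 with only the groups compared, and 2 to 4 without 1 sample. At day 43 the standard diet's 0 became 7 without the ribosomal term, 8 with RIN, 6 with only the groups compared and 1 by DESeq2 (203 genes in all), and stayed 0 without any 1 sample. The GW3965 diet's 1 became 8, 7, 8 and 2 in the same order (581 genes in all by DESeq2), 2 without the RIN 2.6 sample, 0 with matched untreated mice and 0 to 1 without 1 sample, 0 without replicate 3 of day 43. At day 70 against day 0, the GW3965 diet's 4 became 7 without the RIN 2.6 sample and 3 to 4 without 1 sample of its groups, and the standard diet's 5 became 4 to 5. From day 22 to day 70, the standard diet's 7 became 2 to 7 without 1 sample, and the GW3965 diet's 1 became 2 without the ribosomal term, 2 with RIN, 0 with only the groups compared and 0 to 1 without 1 sample. Between the diets at day 70, the 1 became 3 with RIN, without the RIN 2.6 sample or by DESeq2, where 1026, 851 and 1170 of all genes were called. It became 0 with no filter or with only the groups compared. Without 1 sample it became 0 to 4, while all genes called ran from 6 to 1464. At day 43 it was 0 to 1. The diet effect at day 70 minus that at day 0 or day 22 gave 1 by DESeq2, where 306 and 938 of all genes were called. Without 1 sample it gave 0 to 1, where 0 to 418 and 0 to 929 of all genes were called. The causes were not tested.

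Replicate numbers are shared between groups, but no label ties a number to a litter or day. Same-numbered samples of both diets on the same day, which came from different cages, had a mean correlation of their deviations of -0.066 over 13 pairs, 2 of them over 0.1, and pairs across days were not tested. With a replicate block, the diet comparison at day 70 called 1 of the 10 genes and 188 of all genes in place of 312, and the log2 fold change of *Timd4* was 2.59 (FDR 0.044). Of the member calls, the block ended that of *Adgre1* at day 70 against day 0 on the standard diet (FDR 0.056) and added that of *Csf1r* on the GW3965 diet (FDR 0.040).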
